A study of Mus musculus with 9 samples.

Results

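The comparison described here set mouse embryonic fibroblasts (MEFs) lacking Anp32e against wild-type (WT) MEFs, gene by gene, using ATAC-seq, in which a transposase cuts and tags DNA that is open in chromatin. It drew on 6 of the 9 samples of the series, 3 WT and 3 Anp32e null, whose libraries were merged by genotype before peaks were called, so that each genotype was represented by 1 list of accessible regions. All 20807 protein-coding genes of chromosomes 1 to 19 were examined. The 2 remaining lists came from Anp32e null cells given a non-targeting (NT) siRNA, with 1 library, or an H2A.Z siRNA, with 2 libraries, and were read only as a further look at the null genotype. Primary cells of both genotypes came from embryos, were donated by another laboratory, were grown in the same serum-containing medium and were used at a passage below 8. With 1 list per genotype no spread between replicates could be had, no difference was tested, and every value below describes these lists.

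ANP32E is a histone chaperone that binds the variant histone H2A.Z and removes it from nucleosomes. H2A.Z is found mainly in the nucleosomes that flank active or poised promoters and enhancers, and loss of the chaperone is a way to alter its distribution without touching the H2A.Z genes. Promoters of genes that every cell uses are typically rich in CpG dinucleotides and open in most tissues, whereas promoters of tissue-restricted genes are often CpG-poor and open only in some cells. The comparison asked at which genes chromatin was open in one genotype and not in the other.

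The libraries differed in more than the Anp32e allele. On chromosome Y the WT list held 11 peaks, all beyond 90 Mb and none elsewhere, whereas the null list held 8 peaks before that position. Promoter peaks of the Y-linked genes Kdm5d, Eif2s3y, Uty and Ddx3y were called in all 3 null lists, with pileups of 29 to 169 fragments in the untransfected null list, and not in the WT list. Xist, the RNA gene that coats the inactive X chromosome of female cells, had 2 promoter peaks in the WT list, with a fold of up to 6.12, and none in the 3 null lists. The labels gave no sex, and a difference in the sex of the pooled embryos cannot be told apart from genotype in any result below, although all results are restricted to autosomes. The list sizes were close (81848 autosomal peaks in WT, 80433 in null), but the background was 8.85 fragments per position in WT and 5.12 in null, so that a call at background needed 19 fragments in WT and 13 in null. Fibroblast marker promoters were open in both genotypes: 20 of 25 had a peak in both lists, among them Col1a1, Col1a2, Pdgfra, Pdgfrb, Thy1, Twist1 and Vim, 1 (Pi16) had a WT peak only, and Dpt, Postn, Tcf21 and Lum had none.

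A promoter was taken as the 1 kb on either side of any annotated transcript start, and a peak counted when it overlapped that window by 1 bp or more. By this measure 13879 genes had a promoter peak in both lists and 6242 in neither. A peak in the null list only was found at 288 genes, which is 1.38% of all genes, and a peak in the WT list only at 398 genes, or 1.91%. Which class was larger depended on the processing, with 395 null-only and 308 WT-only genes when WT was thinned to the null background, and 315 and 279 with a stricter q. Most of these peaks were weak. The rank of a peak is given as the percentile of its fold enrichment within its own autosomal list, so that 100 is the strongest peak. The median rank was 14.9 for null-only promoters and 14.0 for WT-only promoters, against 81.4 in the null list for promoters open in both lists with little change in rank. Only 22 null-only and 25 WT-only promoters stood at or above the 50th percentile of their list.

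Among the null-only promoters of highest rank, 8 belonged to genes with no WT peak touching the null peak at all, outside the protocadherin clusters described further on. Gria4 encodes a subunit of the AMPA-type glutamate receptor. Its null peak (chr9:4795534-4796481, summit 3 bp into a UTR exon) stood at percentile 64.4 with a pileup of 41 fragments, and the nearest WT peak lay 418512 bp away. Scaled by the backgrounds of the lists, that pileup corresponded to 71 fragments in the WT list, where 19 sufficed for a call, or to 45 when also corrected for the median ratio of promoters open in both lists, which favoured null by 0.64 on the log2 scale. The same promoter stood at percentile 53.9 in the NT siRNA list and 71.5 in the H2A.Z siRNA list. Gria4 was thus open in all 3 null lists and not in the WT list.

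Dnah9, an axonemal dynein heavy chain, had a null peak of percentile 65.5 (pileup 42) over a coding exon near its start, 172961 bp from any WT peak. Dok5, a docking protein of receptor tyrosine kinase signalling, had one of percentile 58.2 (pileup 51) in a UTR exon, 140684 bp from the nearest WT peak. Dpp6, an auxiliary subunit of voltage-gated potassium channels, had one of percentile 56 (pileup 35) at an internal start, 176646 bp from WT peaks. These 3 promoters were open in both siRNA lists too. Their percentiles were 47.7, 53.9 and 17.7 with NT siRNA and 22.5, 58.2 and 45.0 with H2A.Z siRNA. Ccdc83, a coiled-coil protein gene, stood at 56 (pileup 35) in the null list and at 95.6 and 94.2 in the siRNA lists. Stmn2, a neuronal regulator of microtubules, stood at 67.8, 44.3 and 63.5 in the same order, and a WT peak lay 253 bp beyond the end of its null peak. Map3k19, a protein kinase gene, stood at 55.4, 32.7 and 53.4. Prlr, the prolactin receptor, stood at 55.2 in the null list and 28.1 after NT siRNA, and had no promoter peak after H2A.Z siRNA.

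The remaining top-ranked null-only promoters rested on the edge of the window. The null peaks of Il31ra (percentile 89.3), a subunit of the interleukin-31 receptor, Itih3 (77.1), a hyaluronan-linked plasma protein, and the zinc finger gene Zfp618 (66.5) reached outside the promoter window and overlapped a WT peak there. Their summits lay at 1240, -1179 and -1299 bp from the nearest start, negative values being upstream. These sites were therefore accessible in both genotypes, and only the part inside the window differed.

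WT-only promoters of high rank were mostly without a peak in the NT siRNA list. Malrd1, which encodes a membrane protein with MAM and LDL-receptor domains, had the strongest WT-only promoter peak (chr2:15526360-15526902, summit 144 bp from its start, in a UTR exon), at percentile 92.7 with a pileup of 105 fragments. No null peak lay within 379403 bp and neither siRNA list had a promoter peak. Scaled to the null background its pileup corresponded to 61 fragments, where 13 were needed for a call, or to 95 with the same correction. Cntn1, an adhesion protein of axons, had a WT peak of percentile 71.2 (pileup 66), with the nearest null peak 81202 bp away. Tmem238l had one of percentile 67.9 (pileup 55), with the nearest null peak at 27311 bp. None of Malrd1, Cntn1 and Tmem238l had a promoter peak in either siRNA list. Nxpe2 stood at 76.5 (pileup 67) in WT and at 23.0 after NT siRNA. For 7 of the 12 WT-only promoters of highest rank, Sdhaf1 (88.1), Bcl2l15 (81.4), Sp9 (71.5), Gabrr2 (67.6), Gsg1 (64.7), Ntf3 (62.6) and Elobl (62.1), the WT peak met a null peak just outside the window. Of these 7, all but Gsg1 had a promoter peak in the H2A.Z siRNA list. They stood there at 90.5 (Sdhaf1), 27.5 (Bcl2l15), 52.9 (Sp9), 51.8 (Gabrr2), 47.7 (Ntf3) and 14.3 (Elobl).

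**Figure D1:**
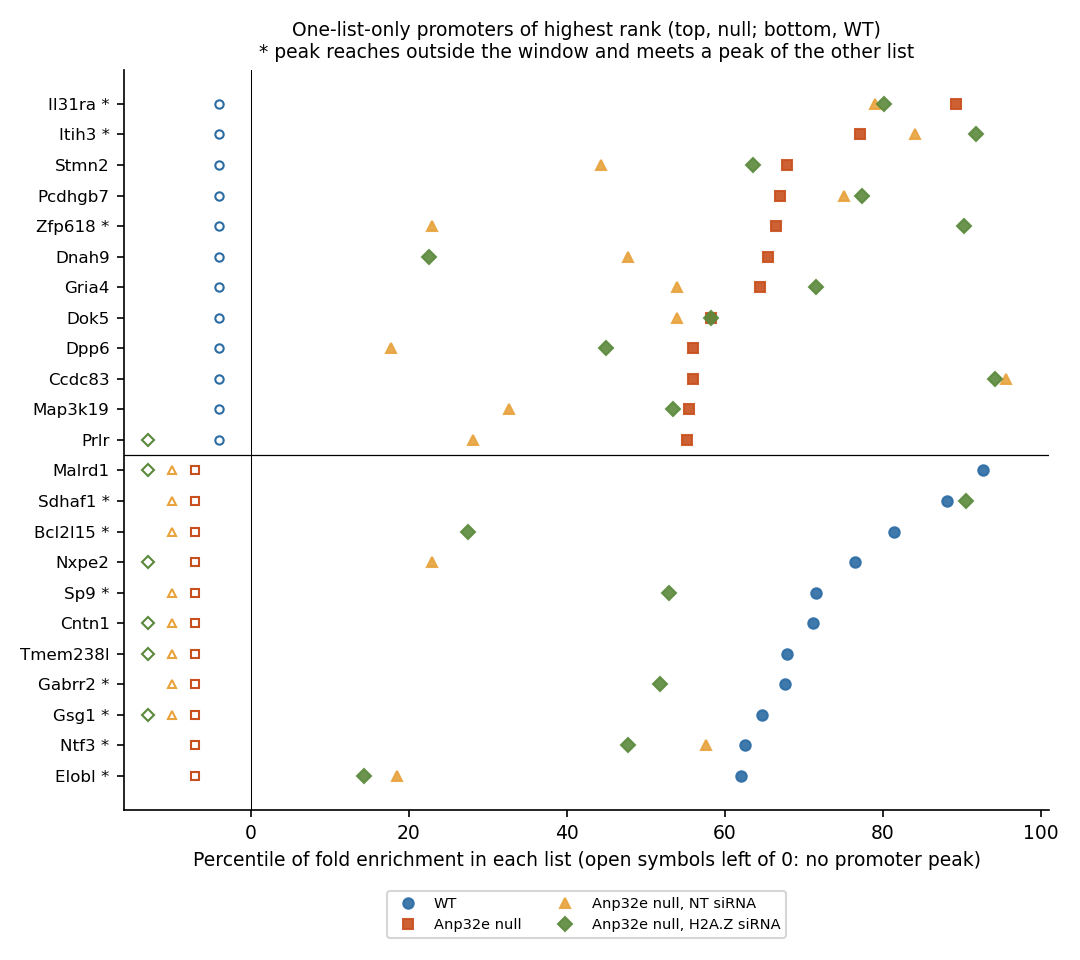
Rank of the promoter peak in each of the 4 lists (x axis, percentile of fold enrichment within the list) for the 12 null-only (top) and 11 of the 12 WT-only (bottom) promoters of highest rank, with open symbols left of 0 where a list had no promoter peak. All 12 null-only promoters had a peak in the NT siRNA list and 11 of them in the H2A.Z siRNA list. Of the 11 WT-only promoters shown 8 had none after NT siRNA. After H2A.Z siRNA the WT-only promoters of Sdhaf1, Bcl2l15, Sp9, Gabrr2, Ntf3 and Elobl did have a peak.

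This recurrence held beyond the named genes. A promoter peak was present in the NT siRNA list at 180 of the 288 null-only genes, or 62.5% (95% Wilson interval 56.8 to 67.9, counting error only), and at 147 of the 398 WT-only genes, or 36.9% (32.3 to 41.8). In the H2A.Z siRNA list the shares were 69.4% (63.9 to 74.5) and 46.5% (41.6 to 51.4). For peaks of percentile 25 or more the NT siRNA shares stood further apart, at 77.4% (67.4 to 85.0) of 84 null-only genes and 35.8% (27.4 to 45.1) of 109 WT-only genes. Below percentile 25, where most of these genes lay, they stood closer, at 56.4% (49.5 to 63.0) of 204 and 37.4% (32.0 to 43.1) of 289. Of all genes 68.3% had a promoter peak in the NT siRNA list and 69.9% in the H2A.Z siRNA list. Of the genes without a promoter peak in either untransfected list, 4.6% had one after NT siRNA. Both siRNA lists were from other libraries of the same null genotype than those used to define the classes. The intervals take genes as units and do not cover the spread between libraries, and the difference between the shares was not tested. A call at background needed 11 fragments in the NT siRNA list and 32 in the H2A.Z siRNA list. Of the 398 WT-only genes, 200 stayed without a promoter peak in both siRNA lists, and 134 had one in both.

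The sequence at the gene start differed between the classes. Within 300 bp at the annotated gene start (250 bp before to 50 bp after), the median ratio of observed to expected CpG was 0.32 for null-only genes and 0.29 for WT-only genes, compared with 0.73 for genes open in both lists and under 20 points of rank change, and 0.16 for genes with no peak. A ratio of 0.6 or more was found at 55 of 288 null-only genes (19.1%), 64 of 398 WT-only genes (16.1%), 66.3% of the little-changed genes and 45.5% of all genes. Promoters open in one genotype only were thus CpG-poor in both directions. Genes open in both lists that rose or fell by 20 points also stood below the little-changed genes, at 0.43 and 0.49. One-list-only peaks were weak, and shared promoters of like rank were not compared. For peaks at an internal start, such as that of Dpp6, the gene start is not where the peak lies. One-list-only peaks were also narrower than those of little-changed promoters, with median widths of 351 bp (null-only) and 362 bp (WT-only) against 1144 bp. They lay further from a transcript start, with a median summit distance of 241 and 316 bp against 94 bp.

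**Figure D2:**
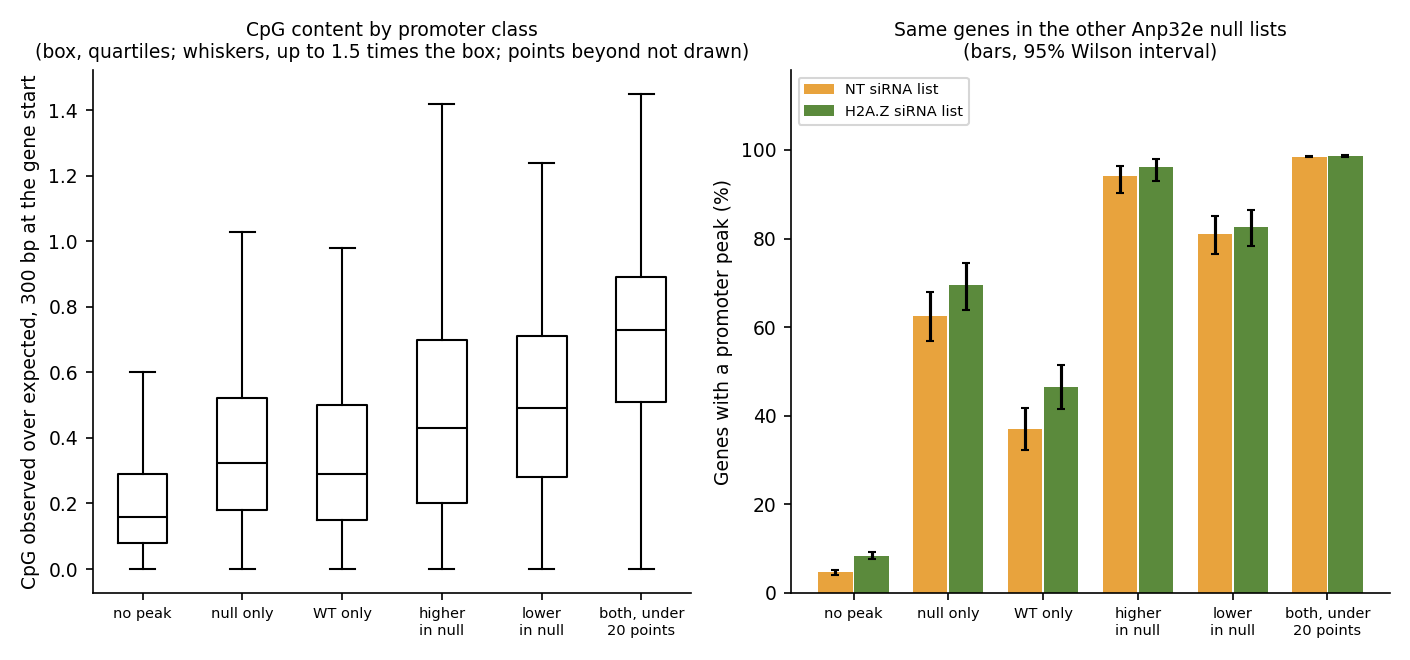
CpG content at the gene start (left, ratio of observed to expected CpG in 300 bp) and the share of genes with a promoter peak in the NT siRNA and H2A.Z siRNA lists (right, %, bars with 95% Wilson intervals) for 6 classes of promoter. The median ratio was 0.32 and 0.29 in the one-list-only classes and 0.73 in promoters open in both lists with little change in rank.

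In the 201 bp centred on the peak summit, 6 short motifs were searched on both strands. SP1 letters (GGGCGG) were present in 19.3% of null-only windows (15.1 to 24.3) and 14.1% of WT-only windows (11 to 17.9), against 47.2% of the windows of all genes with a promoter peak. AP-1 letters (TGANTCA) were present in 9.1% (6.3 to 13) and 12.8% (9.8 to 16.5), against 6.9%. RUNX letters (TGTGGT) were present in 13.7% (10.2 to 18.2) and 19.2% (15.6 to 23.4), against 9.1%, and TEAD letters (GGAATG) in 10.9% and 12%, against 8.3%. NF-Y letters (CCAAT) were present in 21.1% and 20.2%, against 26.2%, and the cAMP response element (TGACGTCA) in 1.1% and 0.8%, against 2.0%. For each motif the intervals of the null-only and WT-only windows overlapped. Among promoters open in both lists, AP-1 letters were present in 18.2% (13.7 to 23.7) of the windows of promoters that rose by 20 percentile points, as described further on, and in 10.8% (7.8 to 14.7) of those that fell as far, with overlapping intervals. RUNX letters were present in 15.2% (11.1 to 20.3) and 8.6% (6.0 to 12.2), also overlapping, and SP1 letters in 30.7% and 30.8%.

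The sequences below show what such promoters look like, with 2 examples each of null-only, WT-only, higher-ranked and lower-ranked promoters. Each is the 201 bp around the summit in GRCm38.p6 (RefSeq), on the strand of the gene, in lower case with letters of the 6 motifs in capitals. Gria4 lies at chr9:4796039-4796239 (minus strand), Ccdc83 at chr7:90265644-90265844 (minus), Malrd1 at chr2:15526523-15526723 (plus), Cntn1 at chr15:92051230-92051430 (plus), Ifi203 at chr1:173942678-173942878 (minus), Trim29 at chr9:43318785-43318985 (plus), Armh4 at chr14:49783282-49783482 (minus) and Mkrn3 at chr7:62420015-62420215 (minus). The Malrd1 window held 0 CpG and the Ifi203 window 1, whereas the Cntn1 window held 12 and the Armh4 and Ccdc83 windows 10 each. The capitals mark NF-Y letters in Gria4, Trim29 and Armh4, TEAD letters in Malrd1, SP1 letters on the opposite strand in Cntn1 and AP-1 letters in Ifi203, and Ccdc83 and Mkrn3 held none of the 6.
Gria4: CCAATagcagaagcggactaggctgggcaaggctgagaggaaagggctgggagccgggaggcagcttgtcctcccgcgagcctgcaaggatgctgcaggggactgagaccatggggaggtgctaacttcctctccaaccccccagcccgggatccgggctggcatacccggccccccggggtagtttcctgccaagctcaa
Ccdc83: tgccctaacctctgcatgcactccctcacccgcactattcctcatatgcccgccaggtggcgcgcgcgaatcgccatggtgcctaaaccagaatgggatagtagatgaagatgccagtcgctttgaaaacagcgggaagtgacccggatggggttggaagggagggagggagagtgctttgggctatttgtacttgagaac
Malrd1: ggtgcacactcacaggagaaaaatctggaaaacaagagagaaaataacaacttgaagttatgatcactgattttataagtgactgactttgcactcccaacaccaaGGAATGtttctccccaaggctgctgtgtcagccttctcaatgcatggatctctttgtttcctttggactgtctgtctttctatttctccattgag
Cntn1: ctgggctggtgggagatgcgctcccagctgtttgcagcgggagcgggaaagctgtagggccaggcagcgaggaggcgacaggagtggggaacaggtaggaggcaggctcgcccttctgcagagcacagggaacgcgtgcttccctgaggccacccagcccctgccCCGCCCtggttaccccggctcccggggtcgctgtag
Ifi203: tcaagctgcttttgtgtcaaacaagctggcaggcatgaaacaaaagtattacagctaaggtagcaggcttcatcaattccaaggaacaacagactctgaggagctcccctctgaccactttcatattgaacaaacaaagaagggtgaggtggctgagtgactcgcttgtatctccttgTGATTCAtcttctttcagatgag
Trim29: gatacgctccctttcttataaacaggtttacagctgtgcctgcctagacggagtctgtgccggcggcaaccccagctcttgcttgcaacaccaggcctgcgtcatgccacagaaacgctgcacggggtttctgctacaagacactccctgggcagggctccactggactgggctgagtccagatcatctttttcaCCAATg
Armh4: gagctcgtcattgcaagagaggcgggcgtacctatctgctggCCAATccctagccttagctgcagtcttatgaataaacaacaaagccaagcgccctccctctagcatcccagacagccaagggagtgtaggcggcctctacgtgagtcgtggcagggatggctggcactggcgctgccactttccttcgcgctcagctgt
Mkrn3: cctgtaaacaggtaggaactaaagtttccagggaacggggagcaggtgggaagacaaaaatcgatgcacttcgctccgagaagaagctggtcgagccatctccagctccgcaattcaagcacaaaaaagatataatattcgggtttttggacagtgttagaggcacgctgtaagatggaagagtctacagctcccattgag

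The rank of promoters open in both genotypes was largely kept. Across the 13879 genes the change in percentile from WT to null had a median of -1.34, quartiles of -5.31 and 1.78 and a range from -64.8 to 72.6. A rise of 20 points or more was found at 237 genes (1.71% of those compared) and a fall of 20 points or more at 323 genes (2.33%). After thinning the order turned, to 467 risen and 272 fallen genes, and likewise with the stricter q, to 373 and 297. A rank can change without the pileup: the ratio of pileups, scaled by the backgrounds and with its counting interval, lay above the median ratio of all these promoters at 79 of the 237 risen genes and below it at 233 of the 323 fallen genes. At 221 of the 237 risen and 300 of the 323 fallen genes the best peaks of the lists overlapped each other, so that the change was at the same site. Over all 13879 genes compared this was so at 13410, so the overlap is no trait of the changed promoters. Large changes were rare among strong promoters: of the 8737 genes above the 75th WT percentile, 2 rose and 63 fell by 20 points, whereas of the 569 at or below the 25th percentile 110 rose and 2 fell. Movement away from an extreme of the scale is limited on one side, which bears on both counts. The threshold cut through a continuous range, with 31 genes between 19 and 20 points up and 32 between 20 and 21, and with 53 and 33 on the way down. In the siRNA lists, which the choice did not use, the 220 risen genes with a peak in both had median ranks of 57.9 (NT siRNA) and 64.4 (H2A.Z siRNA), beside 26.6 in WT and 56.9 in null. The 254 fallen genes with a peak in both had medians of 44.0 and 52.1, beside 60.6 in WT and 34.4 in null. These medians leave out 21 fallen genes with a peak in 1 siRNA list and 48 with none, against 11 and 6 risen genes. The fallen medians therefore stand for the genes that kept a siRNA peak only.

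**Figure D3:**
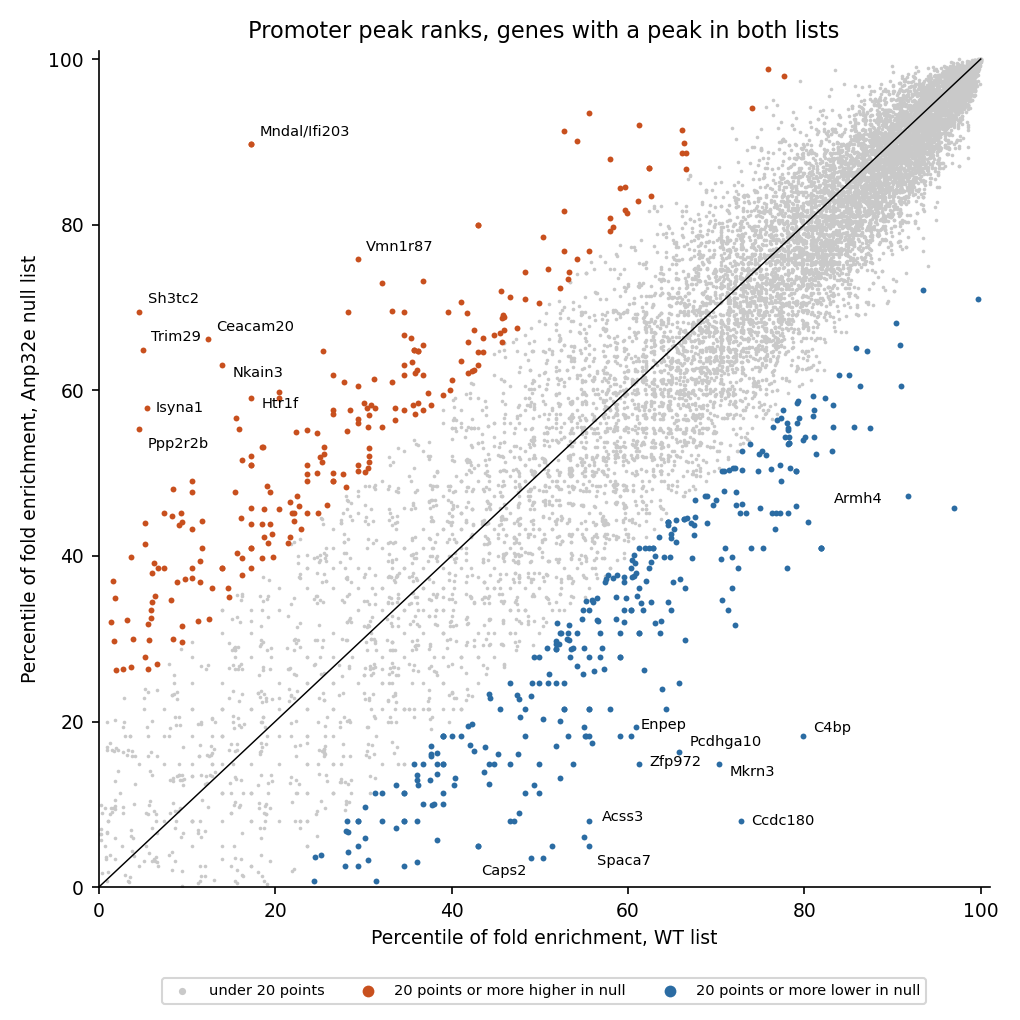
Percentile of fold enrichment of the best promoter peak in the WT list (x axis) and in the Anp32e null list (y axis) for the 13879 genes with a peak in both, each point a gene and the line equality. The 237 genes that rose by 20 points or more are orange, the 323 that fell as far are blue, and the genes with the largest changes are named.

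The largest rise was at a promoter shared by Mndal and Ifi203, interferon-inducible DNA sensor genes of the HIN-200 family, where the same peak stood at percentile 17.3 in WT (pileup 25) and 89.8 in null (pileup 72). It stood at 38.8 in the NT siRNA list and 86.4 in the H2A.Z siRNA list. Pileups scaled by the backgrounds were shifted by a median of 0.64 (log2) in favour of null over all promoters open in both lists, so ratios are given relative to that median, with an exact binomial 95% interval that covers counting error only. For Mndal and Ifi203 this ratio was 1.67 on the log2 scale (1.00 to 2.39). Members of this gene cluster resemble each other closely, and reads may have been divided among copies, which was not tested.

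The other large rises were at genes of diverse function. Trim29, a tripartite motif gene of epithelia and macrophages, rose from 5.0 to 64.9 (pileups 28 and 55), with 87.3 after NT siRNA. Ceacam20, a cell adhesion receptor gene, rose from 12.4 to 66.2, with 75.4 after NT siRNA. Isyna1, the enzyme that makes inositol phosphate from glucose 6-phosphate, rose from 5.5 to 57.9 at a UTR exon, with 52.7 after NT siRNA. Ppp2r2b, a regulatory subunit of protein phosphatase 2A, rose from 4.6 to 55.3, Nkain3, which encodes a partner of the sodium pump, from 14.0 to 63.1, the vomeronasal receptor Vmn1r87 from 29.4 to 75.8 and the serotonin receptor Htr1f from 17.3 to 59.1. After NT siRNA these stood at 44.3 (Ppp2r2b), 30.4 (Nkain3), 23.0 (Vmn1r87) and 44.3 (Htr1f), so that Vmn1r87 was below its WT rank. Sh3tc2, a gene needed for myelination by Schwann cells, rose from 4.6 to 69.5, but its null peak lay 3077 bp from the nearest WT peak, so that 2 different starts were compared. For Trim29 the scaled ratio was 1.12 (0.44 to 1.83), and for Htr1f 0.71 (-0.06 to 1.51), an interval that includes 0.

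The largest fall was at Ccdc180, from percentile 72.8 (pileup 62) to 8.0 (pileup 16), although the same promoter stood at 50.9 and 58.2 in the siRNA lists. C4bp, which encodes a complement regulator, fell from 79.8 (pileup 79) to 18.3 (pileup 19) and had no promoter peak in either siRNA list. Armh4 fell from 91.8 (pileup 136) to 47.2 (pileup 30), with a scaled ratio of -2.03 (-2.65 to -1.45), and likewise had none. Acss3, an acyl-CoA synthetase gene, fell from 55.6 to 8.0, Caps2, a calcium-binding protein gene, from 50.4 to 3.5, and the zinc finger gene Zfp972 from 61.3 to 14.9, each without a peak in the siRNA lists. Spaca7, a sperm acrosome gene, fell from 55.6 to 5.0 and Enpep, the aminopeptidase that cleaves angiotensin, from 60.3 to 18.3, and both were found again in the NT siRNA list, at 20.4 and 40.7.

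Mkrn3, a paternally expressed imprinted gene on chromosome 7, fell from 70.3 (pileup 58) to 14.9 (pileup 18), with a scaled ratio of -1.54 (-2.39 to -0.76). It had no promoter peak after NT siRNA and stood at 6.2 in the H2A.Z siRNA list. Snrpn and Snurf, which share a promoter in the same imprinted domain, fell from 81.9 (pileup 84) to 41.0 (pileup 27), with a ratio of -1.49 (-2.17 to -0.85), and stood at 23.0 and 37.8 in the siRNA lists. Other genes of the domain did not fall by 20 points. Magel2 stood at 48.3 in WT and 52.7 in null, Peg12 was lower in null, at 83.2 and 74.6, and Ndn had no promoter peak in either. Over the 52 imprinted genes found, 42 had a peak in both lists, with a median change of -0.46, 1 rose by 20 points (Nap1l5, from 26.6 to 57.6, with a ratio interval of -0.24 to 1.28, and at 30.4 after NT siRNA), 2 fell (Mkrn3 and Snrpn) and 1 was open in null only.

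To describe function, 58 gene lists were examined. Their counts are set beside the shares over all genes (1.38% null-only and 1.91% WT-only, 1.71% risen and 2.33% fallen among genes open in both), and no list was tested. Genes that maintain any dividing cell were mostly open in both genotypes. Grouped after their values were seen, 9 lists of this kind (DNA replication and E2F targets, mitosis, the p53 pathway, ribosomal proteins, translation factors, the respiratory chain, and the H2A.Z, SWI/SNF and Polycomb machineries) held 477 genes, of which 461 had a promoter peak in both lists and 0 were open in 1 list only. Of the 461, 1 rose and 6 fell by 20 points, and their median change was -1.41. As the grouping used the values, the 0 is no independent evidence. Lists left out of the group held such genes. The glycolysis and hypoxia list and the cholesterol and fatty acid synthesis list had 1 null-only gene each, and the NRF2 and oxidative stress list had 2 WT-only genes. All 59 genes of DNA replication and all 44 mitosis genes were open in both lists, with median changes of -1.17 and -0.05. These promoters ranked high, with list medians of 79.9 to 91.6 in WT. Replication-dependent histone genes, which dividing cells also need, were not in that group. Of 57 open in both lists 3 fell and 1 rose by 20 points. Their median change in rank was -5.77 (-4.89 with WT thinned to the null background). Hist1h3i fell from 44.3 to 12.5, with a ratio of -0.48 (-0.83 to -0.14). These genes are near-identical copies among which reads may have been divided, which was not tested.

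The chromatin machinery that acts on H2A.Z was open in both genotypes at all 35 genes listed. Anp32e itself had a promoter peak in both lists, 61 bp upstream of its start, at percentile 80.8 in WT and 84.9 in null. H2afz and H2afv, which encode H2A.Z, stood at 86.2 and 81.9, and at 97.4 and 97.5. The ratio of H2afz was 0.48 (0.28 to 0.68), with pileups of 379 and 477, and went the other way from its rank. Ino80b, an INO80 subunit, was the single gene of this list that changed by 20 points, from 38.4 to 5.7, with a scaled ratio of -0.42 whose interval (-0.89 to 0.04) includes 0. Among SWI/SNF and ISWI genes Phf10 rose from 58.0 to 80.8, with a ratio of 0.51 (-0.07 to 1.11). Among Polycomb genes Rybp fell in rank from 87.1 to 64.8, but its ratio was 0.20 (-0.24 to 0.64), with pileups of 88 and 91. In the siRNA lists Phf10 stood at 81.2 and 92.2 and Rybp at 73.5 and 98.3.

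Genes of channels, receptors, adhesion and surface tissues differed from list to list. The 7 lists of channels, neurotransmitter receptors, clustered protocadherins, other cadherins, guidance molecules, keratins and neuronal genes were grouped after their values were seen, so that the pooled shares are no independent evidence. They held 475 genes, of which 4.00% were null-only and 4.84% WT-only, and of the 251 open in both 3.59% rose and 8.76% fell. Of 49 cadherins and protocadherins outside the clusters 0 were null-only and 1 WT-only, of 69 guidance molecules 2 and 1, and of 44 integrin and focal adhesion genes 1 and 1. Among the genes open in both lists, 2 cadherins and 5 guidance molecules fell, 1 guidance molecule rose, and no integrin or focal adhesion gene was called. Potassium and calcium channels went in both directions: 9 of 116 were null-only and 6 WT-only, 3 rose and 6 fell. Kcnc2, a fast voltage-gated potassium channel, fell from 63.9 to 23.9, Kcnt2, a sodium-activated potassium channel, fell from 72.5 to 38.6, Kcna7 rose from 8.3 to 44.8 with a ratio of 0.24 (-0.51 to 0.99), and Kcna5 was null-only at 30.7. Among 46 receptors for glutamate, GABA and glycine, 2 rose and 2 fell. Gria4 (64.4) was null-only, and Gabrr2 (67.6) and the metabotropic receptor Grm3 (41.1) were WT-only. Gabra4, which shares its promoter peak with Gabrb1, rose from percentile 43.0 with pileups of 35 in WT and 57 in null. Rbfox3, the gene of the neuronal marker NeuN, rose from 25.5 to 52.3 at an internal start, with a scaled ratio of -0.09 (-0.69 to 0.51) that includes 0. Of 105 keratin and keratin-associated protein genes 85 had no promoter peak in the WT or null list. The others were 4 null-only, 2 WT-only and 14 in both, of which 4 fell, among them Krt16 from 51.8 to 24.7 and Krt79 from 69.6 to 46.2.

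**Figure D4:**
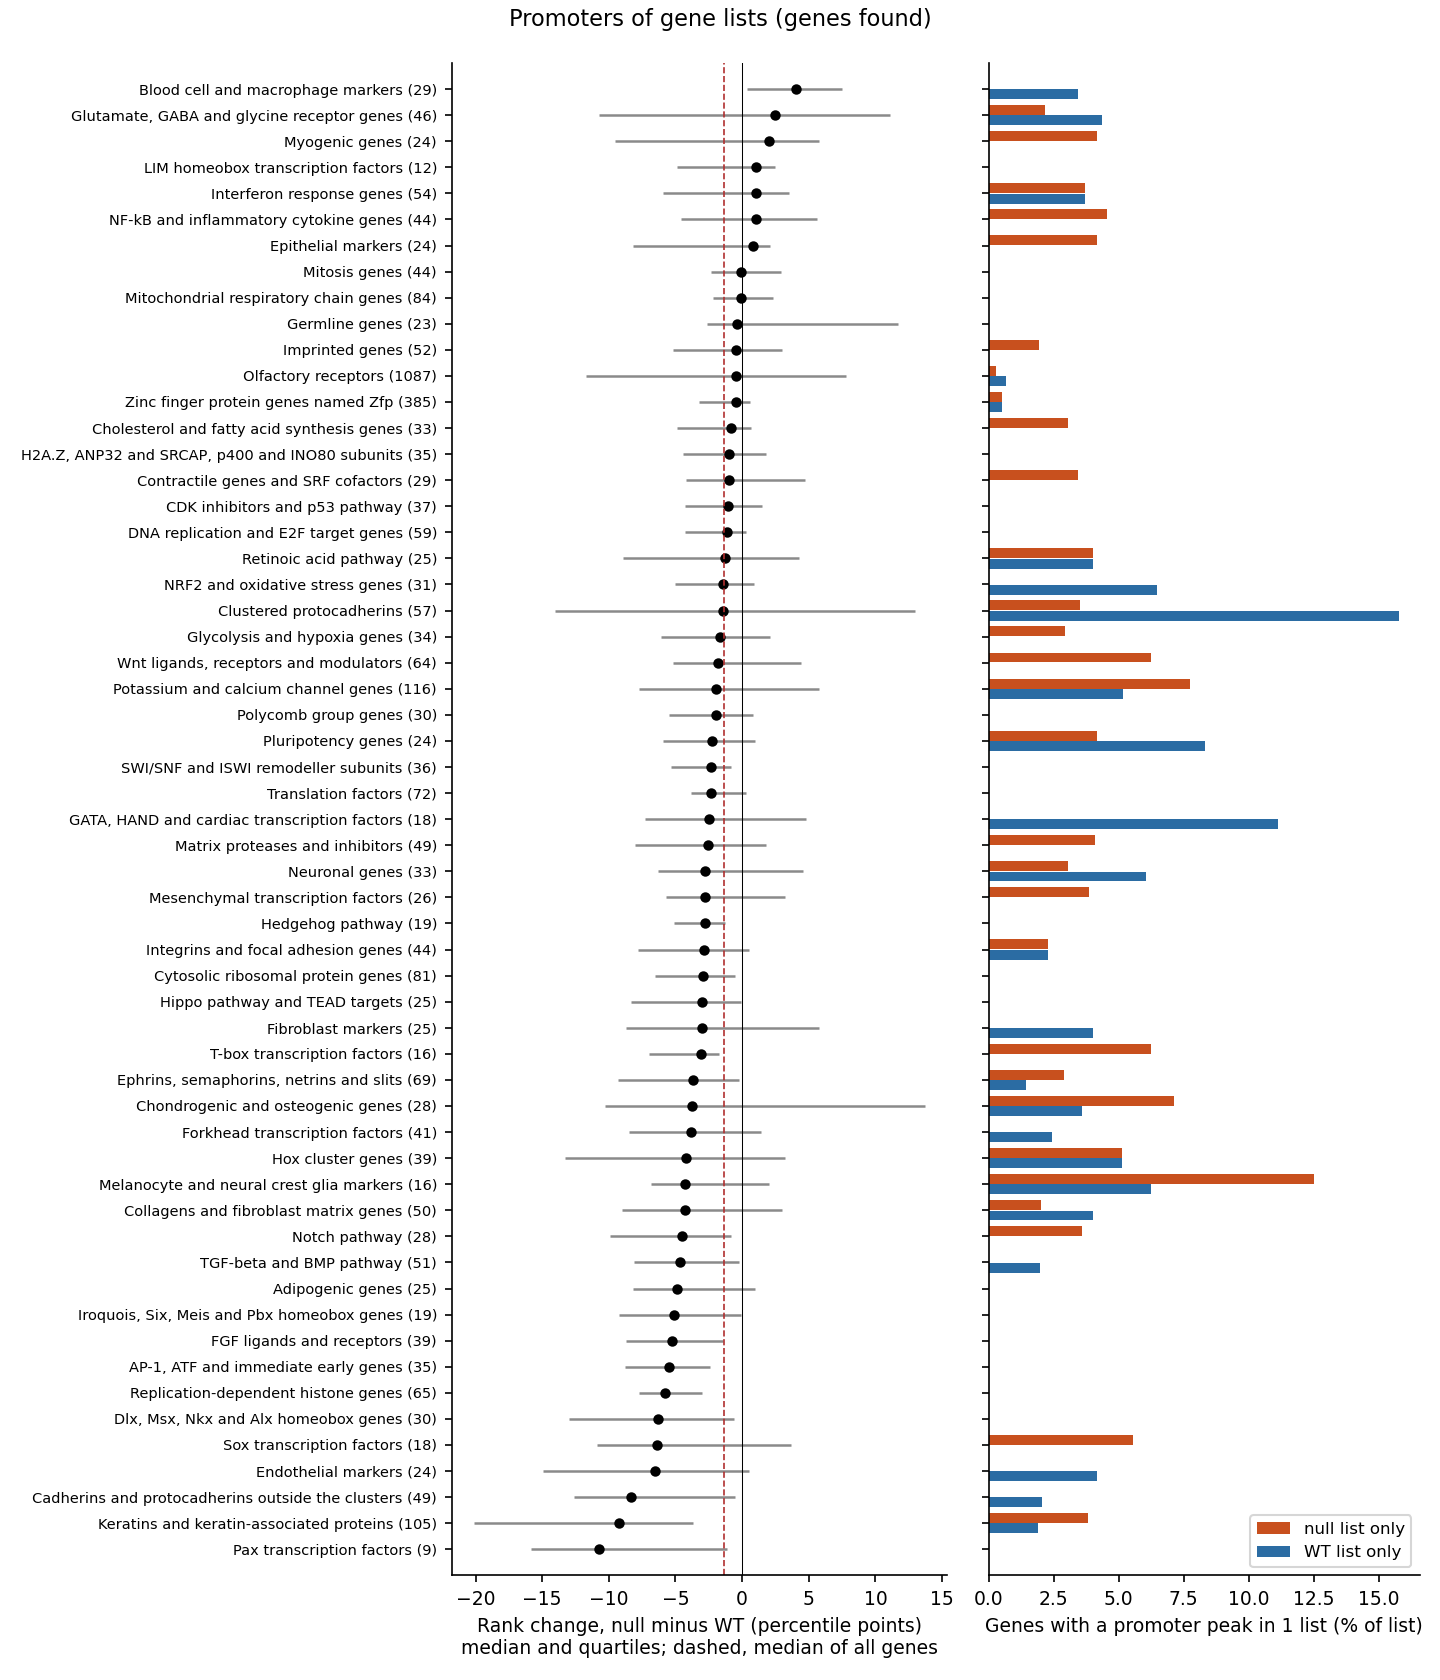
Median and quartiles of the rank change of promoters open in both lists (left, percentile points, null minus WT, with the median of all genes dashed) and the share of genes with a promoter peak in 1 list only (right, %) for the gene lists with 5 or more genes open in both. The 9 lists of cell maintenance, grouped after their values were seen, show no one-list-only promoter. Clustered protocadherins show the longest WT-only bar, 9 of 57 genes.

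Clustered protocadherins, homophilic adhesion proteins whose alternative promoters are chosen cell by cell, had the largest WT-only share of the 58 lists. Of 57 genes, all in clusters on chromosome 18, 9 were open in WT only and 2 in null only. The WT-only promoters were in the alpha cluster (such as Pcdha8 at 23.6, Pcdha9 at 29.4 and Pcdha12 at 36.8), the beta cluster (such as Pcdhb16 at 20.5) and the gamma cluster (Pcdhgb1 at 20.5). The null-only promoters were both in the gamma cluster, Pcdhgb7 at percentile 67.0 (pileup 49) and Pcdhga12 at 25.7. Pcdhgb7 stood at 75.1 and 77.4 in the siRNA lists. Within the gamma cluster neighbours moved in opposite directions, with Pcdhga10 falling from 65.8 to 16.3 and Pcdhgb2 from 61.8 to 26.2, while Pcdhgb4 rose from 32.1 to 73.0 and Pcdhgb6 from 59.7 to 84.5.

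Developmental transcription factors were mostly open in both genotypes. The 10 lists of this kind held 220 genes, of which 5 (2.27%) were null-only and 5 (2.27%) WT-only, and of the 178 open in both 4 (2.25%) rose and 10 (5.62%) fell, with a median change of -3.90. Six2, a homeobox gene of nephron and craniofacial progenitors, fell from 66.5 (pileup 172) to 29.8 (pileup 65), with a scaled ratio of -1.26 (-1.69 to -0.84). Hoxa5 fell from 65.1 to 36.9, with a ratio of -1.12 (-1.80 to -0.48), and Hoxc5 from 30.2 to 9.7, with a ratio of -0.33 (-1.08 to 0.41). In the siRNA lists Hoxc5 stood above its WT rank, at 55.6 and 60.5, while Six2 (38.3 and 46.7) and Hoxa5 (33.6 and 45.9) stayed below theirs. Sox17, an endoderm and endothelial factor, fell from 56.5 to 32.3 and had no peak in the siRNA lists. Pax3 fell from 56 to 34.4, with a ratio of -0.57 (-1.18 to 0.03), while Pax8 rose from 18.5 to 53.2, and Pitx1, a hindlimb identity gene, rose from 6.1 to 34.4. Hoxb13 (26.6) was WT-only, but stood at 25.6 and 26.7 in the siRNA lists. The median of the 23 Hox genes open in both was -4.21, but -0.01 when the WT list was thinned to the null background, so that no direction can be given for that family. The medians of T-box and mesenchymal factors likewise came to -0.95 and -0.87, beside -0.52 for all genes, and that of LIM homeobox genes went from 1.05 to 6.73. Others stayed below all genes, such as Pax (-9.37), Sox (-3.03), GATA, HAND and cardiac (-2.46), Forkhead (-2.33) and Dlx, Msx, Nkx and Alx genes (-2.25). The lists thus differed, and no direction is given for the 10 together. Thinning likewise moved the potassium and calcium channels from -1.97 to 0.89 and the myogenic genes from 2.03 to -2.94.

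Of 24 myogenic genes 12 were open in both lists, of which 2 rose and 3 fell, and 1 was null-only. Of 28 chondrogenic and osteogenic genes 17 were open in both, of which 1 rose and 3 fell, and 2 were null-only and 1 WT-only. These shares of risen and fallen genes stood above those of all genes, from small lists. Cav3, the caveolin of muscle, fell from 80.4 (pileup 127) to 44.1 (pileup 31), with a ratio of -1.89 (-2.50 to -1.31), and Myf6, a myogenic factor, fell from 86.3 to 60.5 and had no siRNA peak, while Actn2, sarcomeric alpha-actinin, rose from 46.6 to 71.3. Sp7, the osteoblast factor osterix, was null-only at 32.1, and the cartilage genes Hapln1 and Col2a1 moved from 36.8 to 65.5 and from 64.9 to 42.2, the former with a ratio interval (-0.16 to 1.25) that includes 0. In the siRNA lists Hapln1 stood at 40.7 and 41.3, Sp7 at 59.6 and 43.3 and Actn2 at 74.4 and 83.6, and Cav3 had a peak in the NT list alone, at 34.8. Of 24 endothelial markers 16 were open in both lists, with a median change of -6.50 (-2.79 after thinning), 3 fell (Sox17, Ptprb and Prox1) and 0 rose by 20 points. For Ptprb the ratio was -0.23 (-0.93 to 0.45). Smaller shifts went up, for example at Egfl7 (44.1 to 55.7) and Vwf (50.6 to 62.2). Pecam1 (39.0) was WT-only, but its promoter peak, shared with Milr1, was present in both siRNA lists, at 47.7 and 77.3. The promoters of Tie1, Emcn, Robo4, Nos3, Plvap, Lyve1 and Icam2 had no peak in either list. Blood markers such as Ptprc, Spi1, Cd3e and the adult globin genes had no promoter peak. Of 29 blood markers 9 were open in both lists, with a median change of 4.08, and 1 (Cd8a, at 4.6) was WT-only. Whether other cell types were present in differing numbers was not tested, and fewer cells of a type and less open chromatin per cell cannot be told apart in pooled cells.

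Genes of the matrix and of fibroblast signalling were mostly open in both genotypes. Of 50 collagen and matrix genes 41 were open in both, with 1 null-only and 2 WT-only. Col3a1, a fibrillar collagen, rose from 23.6 to 49.9 and Col6a1 fell from 36.2 to 12.3, both with scaled ratios whose intervals include 0, and Mfap2, an elastic fibre protein, was null-only at 26.2, with a peak that met a WT peak outside the window. In the siRNA lists Col6a1 stood near or above its WT rank, at 35.7 and 48.1, and Col3a1 at 53.3 and 62.7. Among 51 genes of TGF-beta and BMP signalling 46 were open in both, 3 fell and 0 rose. Nog, the BMP antagonist noggin, fell from 72.3 (pileup 172) to 46.1 (pileup 93), with a ratio of -0.74 (-1.12 to -0.37), Ltbp2, an extracellular matrix protein of the LTBP family, fell from 63.8 to 32.1 but stood at 64.4 and 54.7 in the siRNA lists, and Tgfb3 fell from 60.5 to 39.5 with a ratio of -0.22 (-0.63 to 0.18). Gdf10, a BMP-family ligand, was WT-only at 33.3. Among 64 Wnt pathway genes 54 were open in both, and 4 were null-only and 0 WT-only, among them Wnt8b at 37.1, whose null peak met a WT peak outside the window. Ankrd1, a target of YAP and TEAD, rose from 61.3 (pileup 48) to 92.0 (pileup 114), with a ratio interval of 0.90 to 1.91, and stood at 88.4 after NT siRNA, while Ccn1, another target, fell from 55.2 to 34.6 with a ratio of -0.20 (-0.46 to 0.06). All 25 genes of that list were open in both.

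Crabp1, a retinoic acid binding protein, had a null peak of percentile 44.8 (pileup 32) at its start and no WT peak within 7300 bp, and stood at 62.5 and 58.1 in the siRNA lists. Cdkn1c, an imprinted inhibitor of the cell cycle, stood at 18.6 in WT and 20.5 in null, but higher in the siRNA lists, at 50 with NT siRNA and 57.7 with H2A.Z siRNA. Of the 54 interferon response genes 41 were open in both, with 2 null-only, 2 WT-only, 3 risen and 1 fallen. Ifit1, an RNA-binding effector, rose from 36.2 (pileup 33) to 64.7 (pileup 53), Ciita and Oasl2 were null-only at 34.3 and 27.8, and Zbp1, a nucleic acid sensor, fell from 38.0 to 10.1 but stood at 50.2 and 32.3 in the siRNA lists. Ifit1 stood there at 51.5 and 48.6, Ciita at 34.8 and 23.3 and Oasl2 at 50.9 and 45.5. Of 35 AP-1 and immediate early genes 34 were open in both lists and 1 in neither, with no call in either direction and a median rank change of -5.50 (-5.35 after thinning).

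Differences over whole genes were gathered by locus, the gene body with 10 kb on either side. Promoter peaks inside a locus, of its own gene or of others, were counted too. Null-only peaks outnumbered WT-only peaks by 5 or more at 115 loci (0.553% of genes), and the reverse held at 141 loci (0.678%). These formed 111 and 130 separate regions. They were long genes, with median lengths of 320.1 and 280.3 kb against 17.6 kb for all genes, and of the 2372 genes of 100 kb or longer 4.34% had a null excess and 5.14% a WT excess. A count of peaks grows with the length that is searched. With WT thinned to the null background the counts became 199 null-excess and 57 WT-excess loci. At 104 of the 115 null-excess loci and 114 of the 141 WT-excess loci the promoter was open in both lists. Clustered protocadherins made up 9 of the 141 WT-excess loci.

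Ptprd, a receptor tyrosine phosphatase of neurons, had the largest WT excess. Its 2271 kb locus held 38 WT and 14 null peaks, of which 25 were WT-only and 1 null-only, while its promoter stood at 88.3 in WT and 82.4 in null. The siRNA lists held 6 peaks each there, and none of the 25 WT-only peaks met a peak of either list. Ctnnd2, the neuronal delta-catenin, had 15 WT-only and 0 null-only peaks, Zfp423, a zinc finger factor of neural and preadipocyte lineages, 14 and 0, and Ror1, a receptor for Wnt5a, 13 and 0. Cdh13, T-cadherin, had 15 and 1, and Pdzd2, a PDZ domain gene, 15 and 2. The promoter of Ctnnd2 fell with its locus, from 87.4 to 55.5, while that of Cdh13 stood at 46.0 and 26.6, short of 20 points, and that of Ror1 stood at 98.0 and 95.5. In these loci at most 4 of the WT-only peaks met a peak of the H2A.Z siRNA list and at most 2 a peak of the NT siRNA list.

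Pde4d, a cAMP phosphodiesterase, was among the loci with the largest null excess, 15 peaks. Pde4d held 23 null-only and 8 WT-only peaks, of which 16 and 5 met a peak of the NT siRNA list. Macrod2, a mono-ADP-ribosylhydrolase gene, had 15 null-only and 2 WT-only peaks, Prkg1, cGMP-dependent protein kinase, 17 and 4, and Plcb1, a phospholipase C, 13 and 1. Nav3, a neuron navigator gene, held 3 WT and 16 null peaks, 13 of them null-only, and its promoter rose from 77.7 to 98.0. Of these 13 peaks 4 met a peak of each siRNA list.

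**Figure D5:**
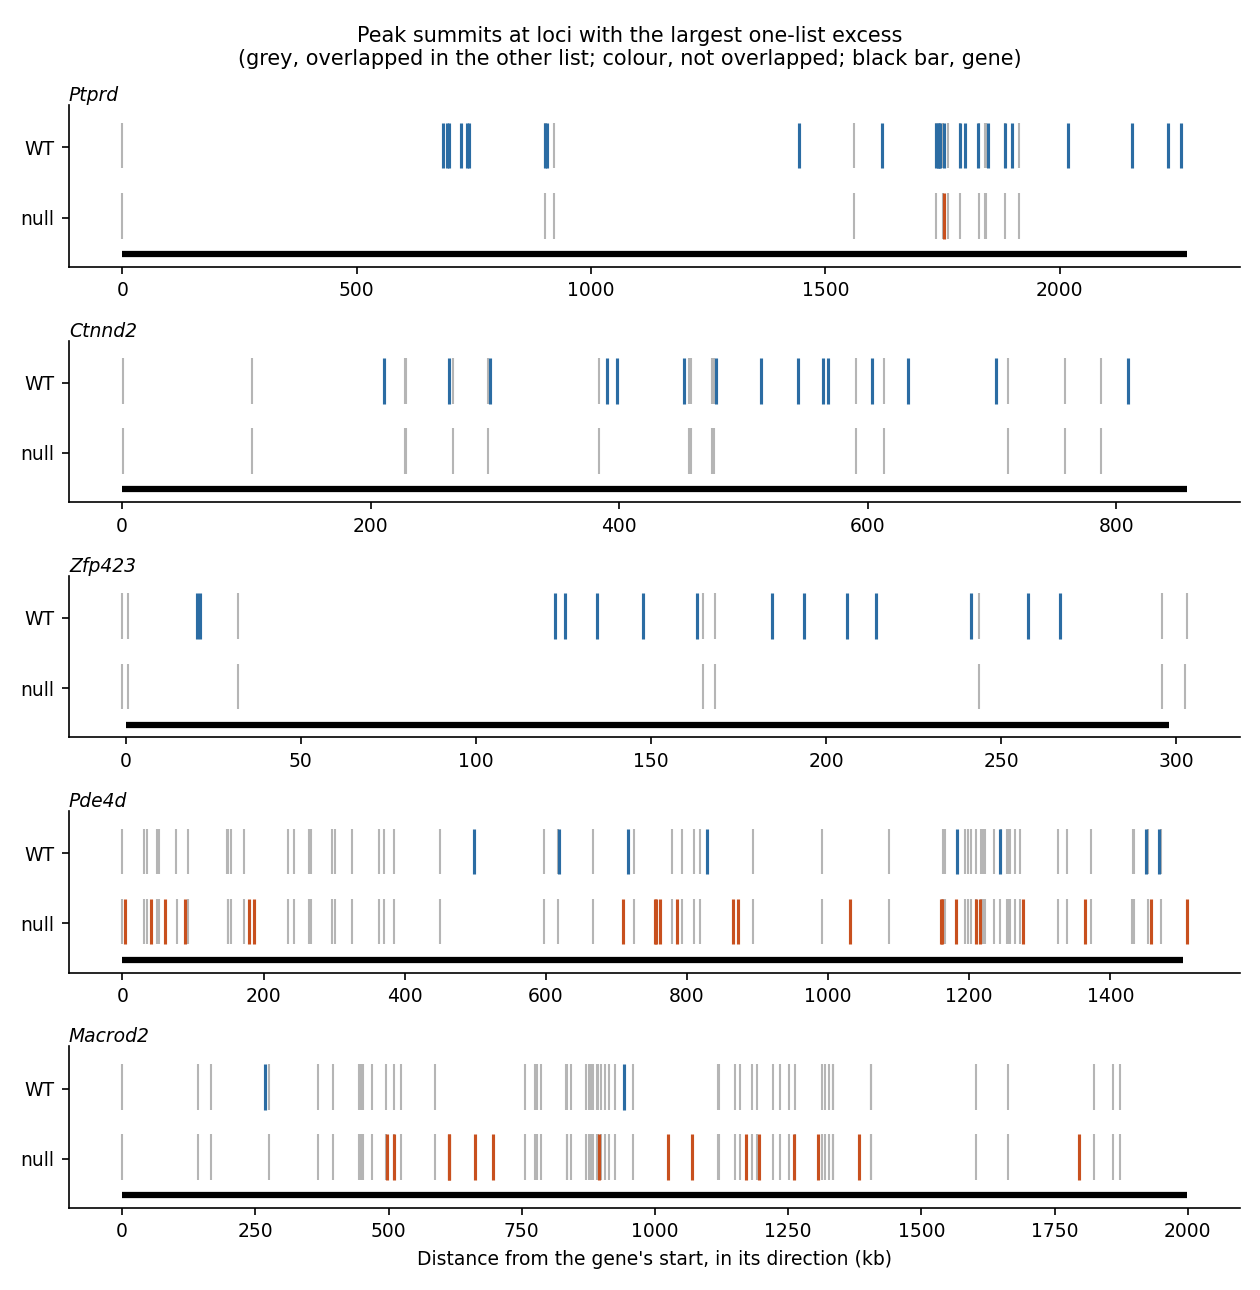
Summits of WT and Anp32e null peaks at 3 of the loci with the largest WT excess (Ptprd, Ctnnd2 and Zfp423, the last tied with Cdh13) and 2 of those with the largest null excess (Pde4d, Macrod2), by distance from the gene's start in kb. Grey lines are peaks overlapped in the other list and coloured lines are not. The one-list-only peaks lie at several places along the gene bodies, unevenly, with long stretches that hold none.

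Around one-list-only promoters the share of one-list-only peaks was close to that around all genes. Of the null peaks within 50 kb of null-only starts, other than promoter peaks of those genes, 18.7% were null-only, against 20.8% around all genes. Of the WT peaks around WT-only starts 21.8% were WT-only, against 22.7%. By chromosome, null-only promoters ranged from 0.333% of genes on chromosome 14 (3 genes) to 3.57% on chromosome 15 (28 genes), and WT-only promoters from 0.974% on chromosome 19 (7 genes) to 3.11% on chromosome 11 (51 genes). Within 5 Mb of Anp32e on chromosome 3 3 of 204 genes were null-only, 2 WT-only, 2 risen and 3 fallen.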

How the data were processed

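ATAC-seq libraries of WT and Anp32e null MEFs were aligned to mm10 with Bowtie2, cleared of duplicates with Picard and merged by group by the authors, who called peaks with MACS2 on each merged set (tool names per the labels). The deposited lists gave, for each peak, the fold enrichment at its summit (a ratio to the local background), a −log10 p-value and a −log10 q-value. No column of per-sample values was left unused (0). From fold and p the fragment pileup and background at each summit were recovered, and came out whole (within 0.05) for 100.00% of peaks, and this step and the gene comparison were tested on simulated data. Depth is known only as this background.

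Peaks of chromosomes 1 to 19 were joined to protein-coding genes of GENCODE M21 with Python 3.11.15, numpy, pandas and scipy. The best promoter peak in the window of 1 kb either side of a start stood for its gene, a change of rank counted from 20 points, and a locus from an excess of 5 peaks. Named genes were the 12 one-list-only promoters of highest rank on each side, the 10 largest rises and falls with a percentile of 50 or more in a list, the 6 largest locus excesses on each side, up to 4 members of each gene list with a one-list-only promoter of percentile 25 or more or a change of 20 points, and Anp32e, H2afz, H2afv, Crabp1 and Cdkn1c. Genes named Gm with digits or ending in Rik were passed over in the first 3. Magel2, Peg12, Ndn, Snurf and 7 protocadherins, and markers with no call, were named after their values were seen. The comparison, lists and motifs were chosen with earlier results of these data known. Alternatives were a stricter q, equal list length, WT pileups thinned to the null background, a window of 500 bp, summits in the window, no overlap with the other list anywhere, rank by p, 30 points and loci without flanks. Chromosomes X, Y and M and scaffolds were left out, except for the check of the sex chromosomes. A few items that the naming rule or marker lists gave are not reported here.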

Additional observations from a re-analysis of the deposited data

Results flagged for a closer look

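The sex chromosomes lie outside the autosomal comparison and were looked at only to check the libraries. The Anp32e null list held 8 peaks on chromosome Y away from the chromosome end and the WT list 0, and the NT siRNA and H2A.Z siRNA lists held 7 and 6. The WT list held a promoter peak of Xist with a fold of 6.12, and no null list held one. X-linked peaks made up 2.66% of the autosomal number in WT and 2.63% in null. The part of embryo sex in the autosomal results was not tested, and it cannot be told apart from genotype here.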

How the results depend on the processing

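No paired analysis was possible because the 3 libraries of each genotype were merged before the peaks were called, and for the same reason no library could be left out. The counts of null-only and WT-only promoters stayed within 1.5 times under all 6 alternatives run, but the larger class turned from WT-only (398 against 288) to null-only with the stricter q (315 against 279) and on thinning (395 against 308), and members changed. With peaks of −log10 q of 5 or more the promoters ranked higher in null numbered 373, those ranked lower 297, and the loci with more WT-only peaks 36. With WT thinned to the null background they numbered 467, 272 and 57, and the loci with more null-only peaks 199, the thinned list having 75818 peaks. With 30 percentile points, 63 promoters ranked higher and 90 lower. With the stricter q 133 of the 288 null-only and 136 of the 398 WT-only genes kept their call, and after thinning 288 and 308. Thinning removed WT peaks and left the null list unchanged, so that no null-only promoter could lose its call. Nor could a locus with a null excess lose it there, so neither outcome speaks to stability. Of the 12 WT-only promoters of highest rank 5 stayed so with a window of 500 bp. Of the 20 largest rises and falls and the 12 named locus excesses none changed sign under the alternatives that gave a value, but many gave none, having lost the promoter peak of a list. With the stricter q this was so for 18 of the 20 largest rises and falls (all but Vmn1r87 and Armh4), and after thinning for Mndal, Ifi203 and Sh3tc2. Sh3tc2 also gave none with a window of 500 bp. Single genes named from the gene lists were not rerun. List medians moved by up to 6.96 points on thinning, and the median of all genes from -1.34 to -0.52.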
